A study of Mus musculus with 17 samples.

Results

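The genes described here are 38 subunits and receptors for glutamate, GABA and glycine, out of 56953 genes in the count table. They were found by their symbols in the table. They comprise 4 AMPA, 5 kainate, 7 NMDA and 1 delta receptor gene, 6 metabotropic glutamate receptor genes, 10 GABA-A and 2 GABA-B receptor genes, and 3 glycine receptor genes. All 38 passed the filter on low counts that left 23062 genes for testing. Messenger RNA of the prefrontal cortex was sequenced in bulk from mice of 3 genotypes, each 8 months old per the labels, kept on the B6C3F1/J background and fed a normal chow diet. The wild-type (WT) group had 5 libraries, of mice that carried neither altered allele. The hTau group, called PS19 here, had 6 libraries of mice that carried a human Tau transgene (isoform 1N4R with P301S) under the Prnp promoter. The CgA-KO/hTau group, called CgA-KO/PS19 here, had 6 libraries of mice that carried the same transgene and lacked Chga, the gene of chromogranin A, from birth in the whole body. The Chga deletion was made in a mixed 129/SvJ and C57BL/6 stock. It was later crossed to C57BL/6 and then to B6C3F1/J, the background of the others. Chromosome segments linked to Chga, and any strain alleles elsewhere that differ between the groups, cannot be told apart from the deletion itself. No group with the deletion alone was compared here.

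Glutamate is the main excitatory transmitter of the cortex. AMPA and kainate receptors carry fast current, NMDA receptors admit calcium and bear on plasticity, and metabotropic receptors signal through G proteins at synaptic terminals, spines and glia. GABA-A and glycine receptors are chloride channels that inhibit the neuron, and GABA-B receptors act through G proteins. Each channel is assembled from several subunits, and which subunits a neuron makes sets the kinetics, the calcium entry and the drug response of its receptors. Human Tau with this substitution forms aggregates in neurons of these mice, and chromogranin A is a protein of dense-core secretory vesicles.

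The 17 libraries held 8838334 to 227651681 deposited counts, and WT replicate 4 was the shallowest. Chga had 0 counts in all 6 CgA-KO/PS19 libraries and 152 to 180 CPM (counts scaled to library size) in the other 11. The labels name replicates without saying more of the animals, so p-values measure the spread between these samples. Several libraries stood apart. A list of 15 striatum markers averaged 2.76 to 2.87 in PS19 as mean log2(CPM + 1), and CgA-KO/PS19 replicates 4 to 6 were alike (2.76 to 2.89). The same list reached 4.22 to 6.47 in CgA-KO/PS19 replicates 1 to 3 and 5.07 to 6.93 in WT. CgA-KO/PS19 replicates 1 to 3 also had more mitochondrial counts (13.8% to 18.2%, against 3.84% to 10.9% in replicates 4 to 6 and 2.56% to 4.59% in PS19) and a higher astrocyte list (7.46 to 7.90, against 6.72 to 6.90 in replicates 4 to 6). WT replicate 5 had 1095 CPM summed over 5 choroid plexus markers, against 13.5 to 17.8 in the other WT libraries. PS19 replicates 4 to 6 were the most alike, and whether they, or CgA-KO/PS19 replicates 1 and 3, come from separate animals is not given in the labels. Averaging them kept 5 of the 22 calls below. Over 3761 well counted genes, the robust SD of the log2 ratio was 0.0523 to 0.0607 between them and 0.098 between CgA-KO/PS19 replicates 1 and 3, above the 0.0243 to 0.0381 expected from sampling of counts divided by 3. Replicates 1 to 3 of every genotype held RNA of the Y-linked gene Ddx3y (above 1 CPM), and the later replicates held under 0.06 CPM. In bulk tissue, fewer cells of a type and less RNA per cell cannot be told apart.

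Compared with PS19, WT cortex had more RNA of 9 receptor genes. The 9 were Gria1, Grik1, Grik2, Grik3, Grin3a, Grm5, Gabre, Glra2 and Glra3, and they spanned AMPA, kainate, NMDA, metabotropic, GABA-A and glycine receptors. CgA-KO/PS19 cortex differed from PS19 in 3 receptor genes, with Gabra2 and Glra2 higher and Grm2 lower. Compared with WT, CgA-KO/PS19 cortex was lower in 9 genes and higher in Grm3.

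**Figure D1:**
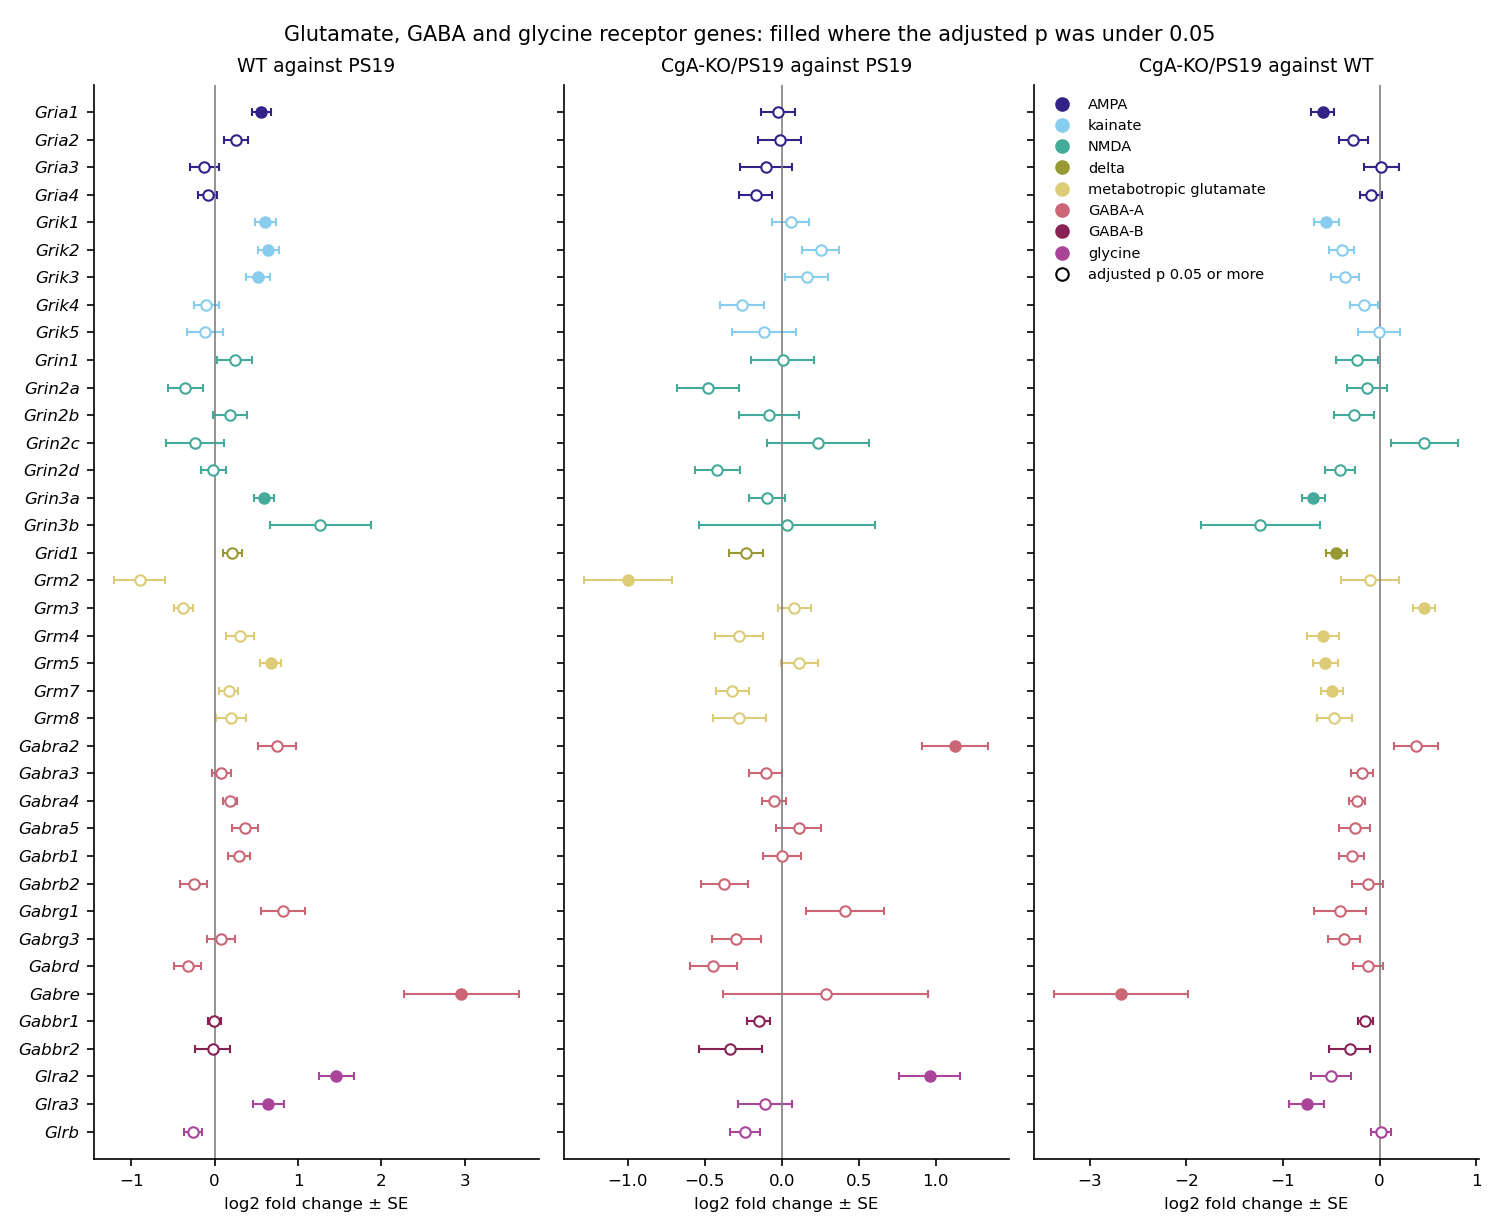
Log2 fold change with its standard error for each of the 38 receptor genes, coloured by class, in the 3 comparisons. The horizontal scale differs between the panels. Filled points had an adjusted p under 0.05: 9 in WT against PS19, 3 in CgA-KO/PS19 against PS19 and 10 in CgA-KO/PS19 against WT.

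The counts were read against all genes tested with edgeR's quasi-likelihood test. For WT against PS19, 9 of 38 receptor genes (23.7%) had an adjusted p under 0.05, while 5.9% of all genes did. All 9 were higher in WT, where 3.95% of all genes were called higher and 1.95% lower. None was called lower by edgeR, although 3 were lower at an unadjusted p under 0.05, and DESeq2 called 2 lower, Grm2 and Grm3. The median log2 fold change of the 38 genes was 0.19, against -0.0097 for all genes. For CgA-KO/PS19 against PS19, 3 of 38 (7.89%) were called, near the 9.72% of all genes (5.5% higher and 4.22% lower), and the median was -0.098 against 0.026. For CgA-KO/PS19 against WT, 10 of 38 (26.3%) were called, while 6.46% of all genes were (3.56% higher and 2.89% lower), and the median was -0.28 against 0.009. Fitted on only those 2 genotypes, 1 of the 10 remained called, and 266 of 20459 genes were called in all. With an unadjusted edgeR p under 0.01 and a log2 fold change beyond 0.5, cutoffs that the study used with DESeq2 to choose gene clusters, WT against PS19 gave 11 higher and 1 lower receptor gene (4.57% and 2.81% of all genes), CgA-KO/PS19 against PS19 gave 2 and 1 (6.3% and 3.44%), and CgA-KO/PS19 against WT gave 0 and 7 (4.66% and 3.09%). PS19 libraries enter the first pair of comparisons and WT libraries the first and the last, so that the 3 are not independent.

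Markers of other regions also differed between the genotypes. Of the 15 striatum markers, 14 were higher in WT than in PS19 and 11 in CgA-KO/PS19 than in PS19, and 3 of 8 markers of deep-layer cortical neurons were higher in WT (5.69 to 6.19, against 4.78 to 5.52 in PS19, as mean log2(CPM + 1)). With the striatum list as a covariate, 8 of the 9 WT calls remained, all but Gabre, and the log2 fold change was 0.75 for Gria1 and 0.94 for Grik1, against 0.56 and 0.61 without it. The striatum list read 5.07 to 6.93 in WT and 2.76 to 2.87 in PS19, without overlap. This fit therefore cannot tell its part apart from genotype there. With the choroid plexus list as a covariate, which is high in WT replicate 5, Glra2 alone of the 9 remained, and Gria1 was at 0.40 and Grik1 at 0.55. Without overlap, that list read 1.62 to 5.00 in WT, 1.13 to 1.49 in CgA-KO/PS19 and 0.79 to 1.02 in PS19. The lost calls therefore cannot be assigned to WT replicate 5. Averaging the near-identical libraries, which leaves fewer libraries, kept 2 calls (Grm5 and Glra2), while Gria1 stood at 0.53, Grik1 at 0.55 and Grin3a at 0.58. Leaving out WT replicates 4 and 5, the shallow library and the one with choroid plexus markers, kept Glra2. In CgA-KO/PS19 against WT, the settings with striatum, averaging and fewer WT libraries kept 8, 2 and 3 of the 10 calls, the choroid plexus covariate kept 0, and CgA-KO/PS19 replicates 4 to 6 alone kept Grin3a. A fit without the PS19 libraries, with only the 2 genotypes compared, likewise kept only Grin3a.

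The upstream sequences of Gabra2, Glra2 and Grm2 are shown because these 3 were called between CgA-KO/PS19 and PS19. That number was near the share of all genes called (7.89% against 9.72%), so nothing particular to receptor genes is read from it. Each runs 5′ to 3′ along the gene's own strand over the 250 bases before its RefSeq start on GRCm38.p6. Capitals mark the GC box, GGGCGG or its complement CCGCCC, which Sp1 family factors bind.
Grm2, chr9:106656110-106656359, minus strand: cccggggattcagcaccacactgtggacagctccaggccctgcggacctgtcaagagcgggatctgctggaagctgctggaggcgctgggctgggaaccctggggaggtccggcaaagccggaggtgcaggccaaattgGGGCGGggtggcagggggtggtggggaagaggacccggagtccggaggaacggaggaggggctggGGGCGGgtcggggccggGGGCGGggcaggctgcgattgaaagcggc
Gabra2, chr5:71095850-71096099, minus strand: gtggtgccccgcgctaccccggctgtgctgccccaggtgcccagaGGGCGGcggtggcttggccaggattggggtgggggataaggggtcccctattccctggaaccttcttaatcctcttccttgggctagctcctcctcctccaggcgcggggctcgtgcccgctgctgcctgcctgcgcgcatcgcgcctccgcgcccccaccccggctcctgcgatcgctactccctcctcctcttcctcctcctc
Glra2, chrX:165327394-165327643, minus strand: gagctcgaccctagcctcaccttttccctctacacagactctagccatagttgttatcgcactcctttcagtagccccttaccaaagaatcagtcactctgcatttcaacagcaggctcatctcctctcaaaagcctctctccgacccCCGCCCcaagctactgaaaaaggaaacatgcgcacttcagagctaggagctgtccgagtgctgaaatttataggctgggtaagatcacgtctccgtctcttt
The Grm2 window held 3 GC boxes, and those of Gabra2 and Glra2 held 1 each. The windows of Grm2 and Gabra2 were rich in G and C (71.2% and 70.0%), and that of Glra2 was at 50.4%. Of the 28 receptor genes with an entry in the promoter table, 18 held a GC box on either strand in these 250 bases, while 32.9% of 27025 gene starts did. Receptor gene windows were also richer in CpG, with a median of 15.5 against 6, and each GC box itself holds a CpG. The cyclic AMP response element TGACGTCA, searched on both strands, was in none of the 28 windows and in 1.62% of all. Neither motif overlaps the other.

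Gabra2, an alpha subunit of GABA-A receptors found at synapses on the axon initial segment and elsewhere, gave the firmest difference between CgA-KO/PS19 and PS19. Its transcript level is known to differ between inbred mouse strains. Strain alleles at this gene cannot be told apart from genotype here and were not tested. The gene lies at chr5:70957597-71095849 on the minus strand of GRCm38. Its level in the 6 PS19 libraries was 79.9 CPM at the lowest, 98.4 at the median and 115 at the highest. In CgA-KO/PS19 it was 131 at the lowest, 217 at the median and 338 at the highest, and no library overlapped. The WT libraries read 109, 187, 128.5, 196 and 209 CPM and lay between the others, overlapping both. CgA-KO/PS19 was 1.13 ± 0.22 higher than PS19 on the log2 scale (SE, adjusted p = 0.0061 by edgeR's quasi-likelihood test). The call held with each library left out in turn (0.95 to 1.24, adjusted p 0.0042 to 0.019), with only CgA-KO/PS19 replicates 4 to 6, which had no more striatum marker RNA than PS19 (1.45, adjusted p = 0.0011), and with near-identical libraries averaged (1.33, adjusted p = 0.025). WT was 0.75 ± 0.22 above PS19 (adjusted p = 0.055), and CgA-KO/PS19 was 0.38 ± 0.22 above WT (adjusted p = 0.36), so that neither passed the threshold.

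Gabra2 is part of a cluster of GABA-A receptor genes on chromosome 5 with Gabrg1, Gabra4 and Gabrb1. The cluster neighbours did not pass the test in any comparison. Between CgA-KO/PS19 and PS19, Gabrg1 differed by 0.41 ± 0.25, Gabra4 by -0.050 ± 0.079 and Gabrb1 by 0.0042 ± 0.12 in log2 fold change. Gabra4 and Gabrb1 overlap on opposite strands between 71658113 and 71658308, and reads in that stretch are uncertain because the sources do not say whether counting used the strand.

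Glra2, an alpha subunit of glycine receptors that is abundant in the developing brain and is also made in the striatum, was lowest in PS19 of the 3 genotypes. It lies on the X chromosome at chrX:165129017-165327393. The WT libraries read 21.6, 16.2, 23.5, 26.2 and 30.4 CPM. PS19 ranged from 6.23 to 12.2 CPM (median 7.82), and CgA-KO/PS19 from 13.1 to 20.3 (median 16.4). No PS19 library reached the lowest library of either other genotype. WT was 1.46 ± 0.21 above PS19 (adjusted p = 0.00054), the smallest adjusted p of the 38 genes in that comparison, and CgA-KO/PS19 was 0.96 ± 0.20 above PS19 (adjusted p = 0.0081). The first held with each library left out (1.35 to 1.59), with near-identical libraries averaged (1.29, adjusted p = 0.011) and without WT replicates 4 and 5 (1.25, adjusted p = 0.0091). The second held with each library left out, but not with CgA-KO/PS19 replicates 4 to 6 alone (0.66, adjusted p = 0.15) or with near-identical libraries averaged (0.75, adjusted p = 0.12). In CgA-KO/PS19, replicates 1 to 3, the libraries with striatum markers, read 18.6 to 20.3 CPM, and replicates 4 to 6 read 13.1 to 14.2. With the striatum list as a covariate Glra2 remained called against PS19 in both comparisons. Between WT and PS19 that list did not overlap, so the fit cannot tell its part apart from genotype.

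**Figure D2:**
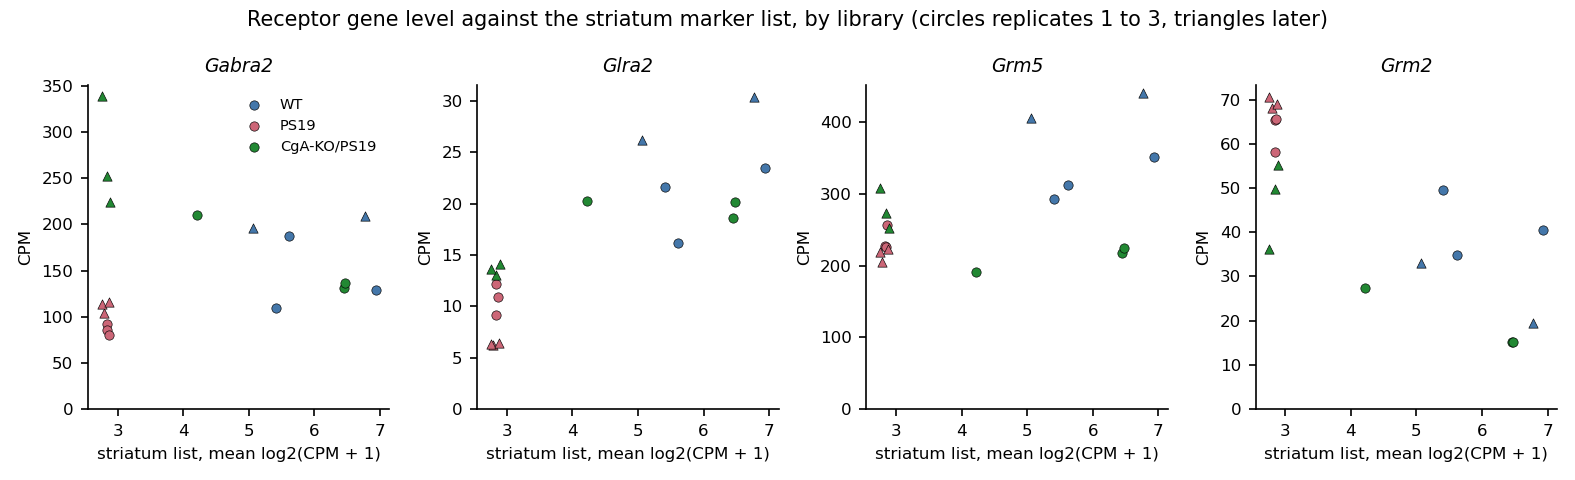
Level in CPM of Gabra2, Glra2, Grm5 and Grm2 against the mean log2(CPM + 1) of the striatum marker list, with 1 point per library. PS19 libraries and CgA-KO/PS19 replicates 4 to 6 sit together below 2.9 on the horizontal axis, and there Gabra2 and Glra2 were higher in CgA-KO/PS19, where Gabra2 was 225 to 338 CPM against 79.9 to 115.

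Grm2, an autoreceptor that lowers glutamate release, went the other way. It lies at chr9:106643095-106656082 on the minus strand. PS19 ranged from 58.1 to 70.6 CPM (median 66.9). CgA-KO/PS19 ranged from 15.2 to 55.1 (median 31.8), and the WT libraries read 49.4, 34.9, 40.5, 33.1 and 19.4. No WT and no CgA-KO/PS19 library reached the lowest PS19 library. The log2 fold change against PS19 was -0.998 ± 0.28 for CgA-KO/PS19 (adjusted p = 0.035) and -0.90 ± 0.30 for WT (adjusted p = 0.089). The call against PS19 was lost in 8 of the 17 fits that left out a library: leaving out PS19 replicate 2, 3, 4, 5 or 6, or 1 of CgA-KO/PS19 replicates 1 to 3, ended it, with adjusted p up to 0.083. It was also lost with the striatum list as a covariate and with CgA-KO/PS19 replicates 4 to 6 alone (-0.50, adjusted p = 0.23). Replicates 1 to 3 of CgA-KO/PS19 read 15.2 to 27.5 CPM and replicates 4 to 6 read 36.1 to 55.1.

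**Figure D3:**
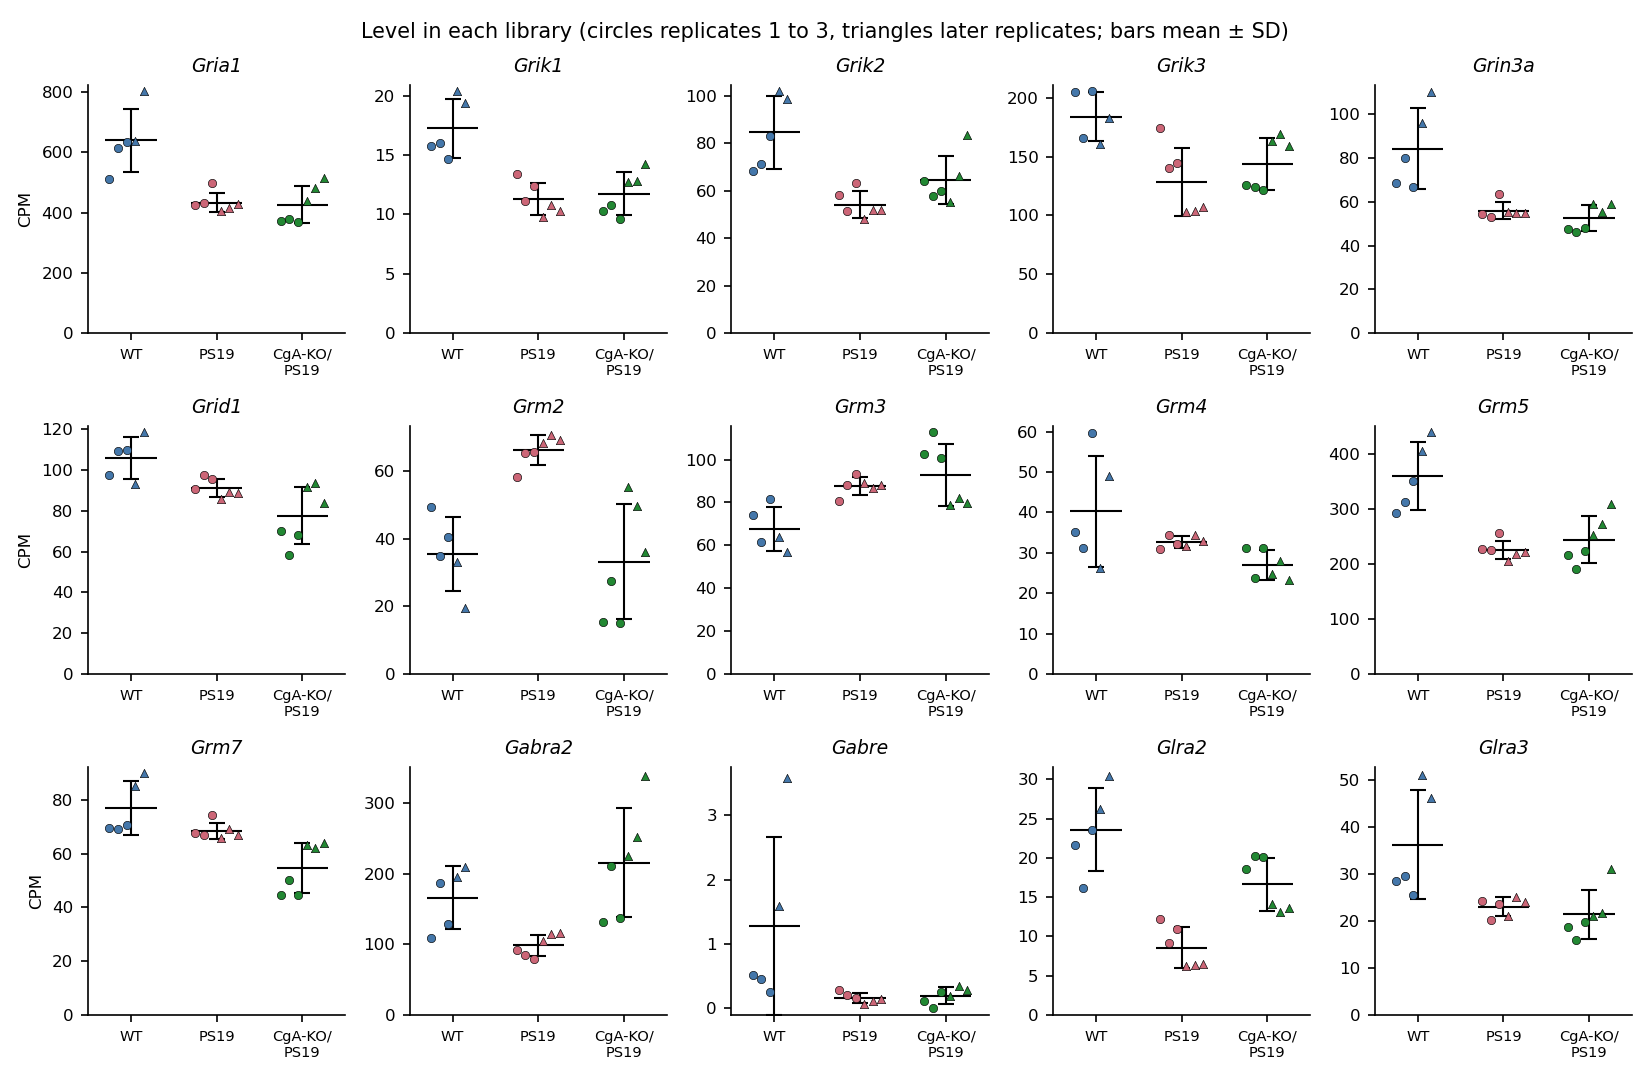
Level in CPM of the 15 receptor genes called in at least 1 comparison, by genotype, with a linear axis, 1 point per library, and bars for mean ± SD. Glra2 was lowest and Grm2 highest in all 6 PS19 libraries, and Gabre was above 1 CPM only in WT replicates 4 and 5 of the 17 libraries.

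Among AMPA receptor genes, only Gria1 was called. It makes the subunit whose receptors are inserted during synaptic potentiation and lies at chr11:57011387-57330244. The WT libraries read 512, 615, 634, 636 and 803 CPM. PS19 ranged from 405 to 497 (median 426), and CgA-KO/PS19 from 369 to 513 (median 410). All WT libraries were above PS19, and the lowest WT library overlapped the highest of CgA-KO/PS19. WT was 0.56 ± 0.12 above PS19 (adjusted p = 0.0077) and CgA-KO/PS19 was at -0.59 ± 0.12 against WT (adjusted p = 0.0075). Both calls held with each library left out. Gria2, whose subunit blocks calcium entry through the channel, had a log2 fold change of 0.26 ± 0.15 for WT against PS19, Gria3 -0.12 ± 0.18 and Gria4 -0.084 ± 0.11. The 4 genes ranged from -0.17 to -0.014 for CgA-KO/PS19 against PS19.

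Of the kainate receptor genes, 3 of 5 were called between WT and PS19, all subunits that form a channel by themselves: Grik1, Grik2 and Grik3. The WT libraries read 15.8, 16.001, 14.7, 20.4 and 19.4 CPM for Grik1, PS19 ranged from 9.76 to 13.4 (median 10.96), and CgA-KO/PS19 from 9.65 to 14.3 (median 11.7). Grik2 read 68.2, 71.2, 83.2, 102 and 98.6 in WT, 48.2 to 63.5 (median 51.7) in PS19 and 55.2 to 83.7 (median 62.0) in CgA-KO/PS19. WT was above PS19 in every library for both genes. Grik3 read 205, 166, 206, 161 and 183 in WT, 103 to 174 (median 123) in PS19 and 122 to 169 (median 143) in CgA-KO/PS19, and its genotypes overlapped. The log2 fold changes of WT against PS19 were 0.61 ± 0.13 for Grik1 (adjusted p = 0.0077), 0.65 ± 0.13 for Grik2 (adjusted p = 0.0051) and 0.52 ± 0.14 for Grik3 (adjusted p = 0.043). Grik3 lost its call in 8 of 17 fits without a library, namely without WT replicate 1, 2, 3 or 5 or PS19 replicate 2, 4, 5 or 6 (adjusted p up to 0.093). Grik1 was also lower in CgA-KO/PS19 than in WT in every library (-0.55 ± 0.13, adjusted p = 0.016, and 0.056 without WT replicate 5). Grik4 and Grik5, the high-affinity subunits that need a partner to form a channel, had log2 fold changes of -0.10 ± 0.15 and -0.12 ± 0.22 for WT against PS19. Grik1, Grik2 and Grik3 lie at chr16:87895900-88290265, chr10:49094833-49788766 and chr4:125490700-125714173.

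Of the NMDA receptor genes, only Grin3a was called. Its subunit lowers calcium entry and magnesium block, and the gene lies at chr4:49661611-49845744. The WT libraries read 68.4, 80.1, 66.9, 95.9 and 110.5 CPM, PS19 ranged from 53.0 to 63.4 (median 55.0), and CgA-KO/PS19 from 46.1 to 59.1 (median 51.7). All WT libraries were above every library of the other genotypes. The log2 fold change was 0.59 ± 0.12 for WT against PS19 (adjusted p = 0.0075) and -0.68 ± 0.12 for CgA-KO/PS19 against WT (adjusted p = 0.0044), and both held with each library left out. Grin1, the subunit every NMDA receptor needs, and Grin2b had log2 fold changes of 0.24 ± 0.21 and 0.18 ± 0.20 for WT against PS19. Grin2a was at -0.35 ± 0.21 for WT and -0.48 ± 0.20 for CgA-KO/PS19 against PS19 (adjusted p = 0.13). Grin2d was at -0.42 ± 0.15 for CgA-KO/PS19 against PS19 (adjusted p = 0.075), and Grin2c, largely an astrocyte and cerebellar subunit in the adult, at 0.24 ± 0.33. Grin3b had 0 to 60 counts per library, and nothing is read from its fold changes. Grid1, the delta receptor gene, whose product joins synapses through secreted adaptor proteins, lies at chr14:34820108-35583379. It read 97.5, 109, 110, 93.1 and 119 CPM in WT and 58.4 to 93.5 (median 77.1) in CgA-KO/PS19, with a log2 fold change of -0.45 ± 0.11 (adjusted p = 0.025). The PS19 libraries lay from 85.6 to 97.6 (median 89.8) CPM. That call was lost in 6 of 17 fits without a library, namely without WT replicate 2, 3 or 5 or CgA-KO/PS19 replicate 1, 2 or 3.

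Metabotropic glutamate receptor genes moved in both directions. Grm5, a postsynaptic receptor that raises intracellular calcium, read 292, 313, 352, 406 and 440 CPM in WT, 206 to 257 (median 225) in PS19 and 192 to 309 (median 239) in CgA-KO/PS19. All WT libraries were above PS19 (0.67 ± 0.13, adjusted p = 0.0040), and CgA-KO/PS19 was lower than WT (-0.56 ± 0.13, adjusted p = 0.014). The first call held with each library left out, and the second was lost without WT replicate 5 (adjusted p = 0.054). Grm3, the other group II receptor beside Grm2 and also made by astrocytes, read 74.3, 61.5, 81.5, 64.0 and 56.7 CPM in WT. It ranged from 80.6 to 93.3 (median 88.2) in PS19 and from 78.9 to 113 (median 91.3) in CgA-KO/PS19. Its level in CgA-KO/PS19 exceeded that in WT (0.46 ± 0.11, adjusted p = 0.023), where the 7 astrocyte markers had a median log2 fold change of 0.60 with 2 of them called higher. The part of astrocytes in that difference was not tested beyond the covariate fit, in which Grm3 was no longer called. The call was also lost without WT replicate 2, WT replicate 5 or CgA-KO/PS19 replicate 2.

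Grm7, a presynaptic receptor of low glutamate affinity, and Grm4, of the same group, were lower in CgA-KO/PS19 than in WT. Grm7 read 69.7, 69.2, 70.6, 85.1 and 90.2 CPM in WT, 65.9 to 74.4 (median 67.4) in PS19 and 44.5 to 64.0 (median 56.2) in CgA-KO/PS19. Every CgA-KO/PS19 library was below every other library. The log2 fold change was -0.49 ± 0.11 against WT (adjusted p = 0.016, and 0.058 without WT replicate 5) and -0.32 ± 0.11 against PS19 (adjusted p = 0.066). Grm4 read 35.1, 31.3, 59.7, 26.3 and 49.0 in WT, 30.8 to 34.5 (median 32.4) in PS19 and 23.2 to 31.2 (median 26.3) in CgA-KO/PS19. WT and CgA-KO/PS19 overlapped (-0.58 ± 0.16, adjusted p = 0.041), and the call was lost in 12 of 17 fits without a library, those being all but WT replicates 1, 2 and 4 and CgA-KO/PS19 replicates 1 and 3. Grm8, of the same group, was at -0.47 ± 0.18 (adjusted p = 0.13). Grm3, Grm4, Grm5 and Grm7 lie at chr5:9485541-9725170, chr17:27422387-27521403, chr7:87584168-88134907 and chr6:110645581-111567230.

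Apart from Gabra2, Gabre was the GABA-A receptor gene with calls, in both comparisons with WT, and they rest on little RNA. Gabre, whose subunit is rare in cortex, read 0.521, 0.461, 0.250, 1.60 and 3.57 CPM in WT, 0.0679 to 0.291 (median 0.154) in PS19 and 0 to 0.35 (median 0.22) in CgA-KO/PS19. The highest library, WT replicate 5, was the one with choroid plexus markers. WT was 2.96 ± 0.69 above PS19 (adjusted p = 0.016), and without that library 1.93 (adjusted p = 0.14). CgA-KO/PS19 was at -2.68 ± 0.69 against WT (adjusted p = 0.028), and that call was lost without WT replicate 5 or CgA-KO/PS19 replicate 1. With the choroid plexus list as a covariate neither was called, at 1.45 (adjusted p = 0.52) and -1.42 (adjusted p = 0.36). That list did not overlap between genotypes, so its part cannot be told apart from genotype by this fit. Gabre lies at chrX:72255999-72274803.

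The other 8 GABA-A receptor genes were not called in any comparison, and Gabra3, Gabra4, Gabrb1 and Gabrg3 ranged from 0.072 to 0.29 in log2 fold change for WT against PS19. For WT against PS19, Gabrg1 was at 0.82 ± 0.27 (adjusted p = 0.079), Gabra5, which serves extrasynaptic receptors, at 0.37 ± 0.16, and Gabrd, also extrasynaptic, at -0.32 ± 0.16. For CgA-KO/PS19 against PS19, Gabrd was at -0.44 ± 0.15 (adjusted p = 0.068) and Gabrb2 at -0.37 ± 0.15 (adjusted p = 0.13). The obligate pair of GABA-B receptor genes were close to level between WT and PS19, with log2 fold changes of -0.0033 ± 0.078 for Gabbr1 and -0.025 ± 0.21 for Gabbr2. Gabbr1 read 852 to 929 CPM in WT and 868 to 906 in PS19.

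Glra3, the second glycine receptor alpha subunit here, read 28.6, 29.6, 25.4, 51.1 and 46.1 CPM in WT, 20.1 to 25.2 (median 23.8) in PS19 and 16.1 to 31.1 (median 20.4) in CgA-KO/PS19. The lowest WT library was just above the highest PS19 library. The log2 fold change was 0.65 ± 0.18 for WT against PS19 (adjusted p = 0.044) and -0.75 ± 0.18 for CgA-KO/PS19 against WT (adjusted p = 0.021). The first call was lost in 9 of 17 fits without a library (without WT replicate 4 or 5, any PS19 replicate or CgA-KO/PS19 replicate 5), and the second without WT replicate 5 or CgA-KO/PS19 replicate 2. Glrb, the beta subunit that anchors glycine receptors to gephyrin, went the other way, with 265 to 338 CPM in WT and 341 to 405 in PS19. Its libraries did not overlap, yet the difference was -0.26 ± 0.10 (adjusted p = 0.16). Glra3 lies at chr8:55940460-56130070.

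Counted over libraries rather than by the model, 7 receptor genes were higher and 2 lower in WT with no overlap with PS19, where 4.39% and 5.13% of all genes were. Between CgA-KO/PS19 and PS19, 2 were higher and 2 lower (2.84% and 3.79% of all genes). Between CgA-KO/PS19 and WT, 0 were higher and 3 lower (2.06% and 1.54%).

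The replicates with and without Ddx3y gave different sizes for the receptor changes. In replicates 1 to 3, where Ddx3y was above 1 CPM, the log2 ratio of mean levels of WT to PS19 was 0.38 for Gria1, 0.43 for Grm5, 0.92 for Glra2 and 0.30 for Glra3. In the later replicates it was 0.79, 0.97, 2.16 and 1.05. The later WT replicates are the shallow library and the one with choroid plexus markers. Over all 38 genes, 9 were higher and 5 lower in WT without overlap in replicates 1 to 3, where 11.6% and 11.2% of all genes were, and 23 and 6 in the later replicates, where 20.8% and 28.8% were. For CgA-KO/PS19 against PS19, Gabra2 had log2 ratios of 0.89 and 1.29, Glra2 of 0.87 and 1.10 and Grm2 of -1.71 and -0.56. The sign differed between the sets for 27 of the 38 genes in CgA-KO/PS19 against PS19, and the share over all genes was not counted. Gria1, for example, had -0.27 in replicates 1 to 3 and 0.20 in replicates 4 to 6. There 4 genes were higher and 24 lower without overlap in replicates 1 to 3 (23.3% and 23.4% of all genes), and 11 and 9 in replicates 4 to 6 (16.2% and 18.4%). Between CgA-KO/PS19 and WT the counts were 2 and 24 (18% and 20% of all genes), and 4 and 15 in the later replicates (14.5% and 11%). The difference between the sets was not tested, and sex, which the labels do not give per library, cannot be told apart from the other traits of these libraries.

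CgA-KO/PS19 replicates 1 to 3 and 4 to 6 were far apart for these genes. In replicates 1 to 3, 22 of 38 receptor genes were lower and 3 higher with no overlap, while 17% of all genes were lower and 18.2% higher. Grin2a read 198 to 263 CPM in replicates 1 to 3 and 426 to 475 in replicates 4 to 6. Gabbr2 read 330 to 487 and 624 to 861. Grin2c, Grm3 and Glra2 were the 3 higher genes, and Grin2c read 36.9 to 59.4 and 10.9 to 24.0. The set with lower receptor RNA was that with more mitochondrial, astrocyte and striatum marker RNA, with higher oligodendrocyte (7.21 to 7.54 against 6.54 to 6.87) and endothelium lists (4.86 to 4.96 against 4.46 to 4.64), as mean log2(CPM + 1). Some neuron marker lists read lower on that scale: excitatory neurons (7.19 to 7.63 against 7.83 to 7.95), upper-layer neurons (6.51 to 6.84 against 7.07 to 7.15) and interneurons (5.74 to 5.94 against 6.34 to 6.49). The list of deep-layer neurons overlapped between the sets (5.38 to 5.61 against 5.44 to 5.65). The summed CPM of the excitatory list went the other way (4004 to 5343 against 2947 to 3608). The part of each in these values was not tested.

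Ratios of 2 subunits within a library do not depend on how libraries are scaled. The 4 ratios were compared in 3 comparisons, giving 12 exact permutation tests, two-sided and adjusted together. Grin2a to Grin2b, the pair whose balance shifts in postnatal development, had a count ratio of 0.445 to 0.574 in PS19, against 0.282 to 0.433 in WT libraries and 0.333 to 0.444 in those of CgA-KO/PS19. The mean log2 ratio was -0.996 ± 0.14 in PS19 (SD, n = 6), -1.53 ± 0.22 for WT (n = 5) and -1.40 ± 0.15 for CgA-KO/PS19 (n = 6). WT and CgA-KO/PS19 were each below PS19 in every library, by 0.54 and 0.41 on the log2 scale, with differences of -0.54 and -0.41 (adjusted p = 0.0065 each, exact permutation test). The gap was narrow, since the highest CgA-KO/PS19 ratio and the lowest PS19 ratio were 0.444 and 0.445. With near-identical libraries averaged both missed the threshold, at differences of -0.52 and -0.36 (unadjusted p = 0.016 and adjusted p = 0.063 each, exact permutation test). Fewer libraries raise the smallest possible p, so this miss alone says little of stability.

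Grm2 to Grm3 had a count ratio of 0.704 to 0.815 in PS19, 0.342 to 0.666 for WT and 0.149 to 0.699 for CgA-KO/PS19. The log2 ratio was -0.41 ± 0.078 (SD, n = 6), -0.98 ± 0.35 (n = 5) and -1.65 ± 0.99 (n = 6) in that order. The spread in CgA-KO/PS19 was the widest of the 3 genotypes. WT and CgA-KO/PS19 lay below PS19 in every library, with differences of -0.57 and -1.24 (adjusted p = 0.0065 each, exact permutation test). CgA-KO/PS19 replicates 1 to 3 had log2 ratios of -2.75, -2.04 and -2.73, and replicates 4 to 6 of -0.52, -0.72 and -1.14. With replicates 4 to 6 alone the difference from PS19 was -0.39 (adjusted p = 0.029, exact permutation test). With all 6, it was lost without PS19 replicate 1, 2, 3 or 4 (adjusted p up to 0.052, exact permutation test). The libraries of the 2 genotypes still did not overlap in those tests.

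**Figure D4:**
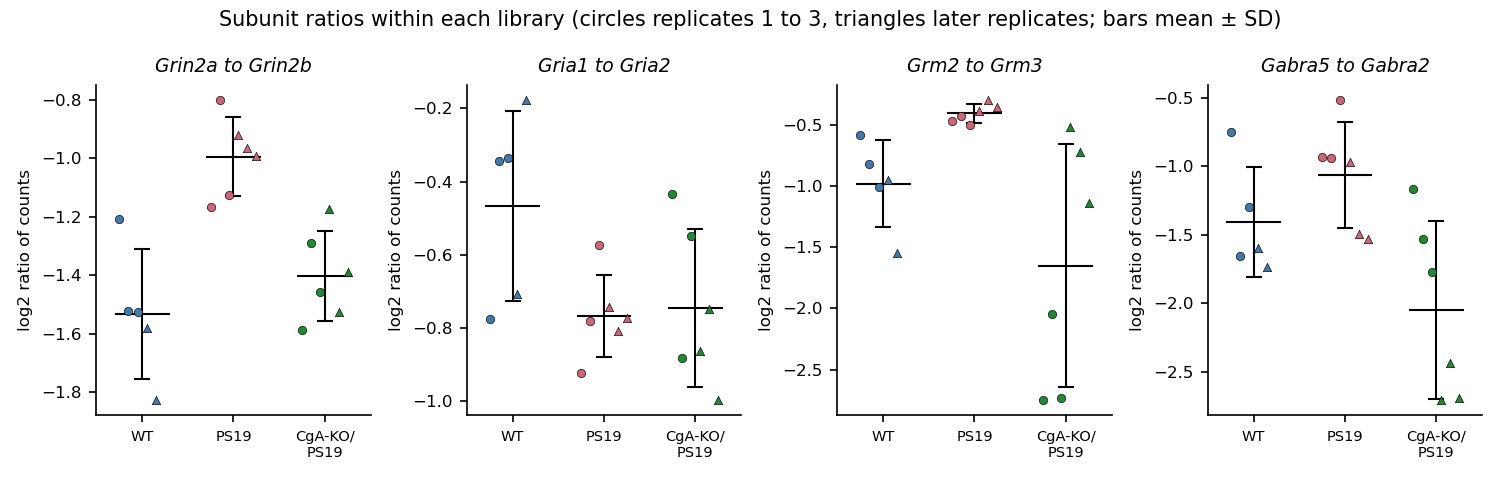
Log2 ratio of the counts of 4 pairs of subunits in each library, by genotype, with mean ± SD. Grin2a to Grin2b and Grm2 to Grm3 were higher in each of the 6 PS19 libraries than in any other library.

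Gabra5 to Gabra2 was lower in CgA-KO/PS19 than in PS19, by a difference of -0.98 (-2.05 ± 0.65 against -1.06 ± 0.39, n = 6 each, adjusted p = 0.031, exact permutation test). Its libraries overlapped, and the call was lost without PS19 replicate 1, 2, 3 or 4 or CgA-KO/PS19 replicate 4, 5 or 6 (adjusted p up to 0.068, exact permutation test). With CgA-KO/PS19 replicates 4 to 6 alone the difference from PS19 was -1.55 (adjusted p = 0.029, exact permutation test). Gria1 to Gria2, which bears on calcium entry through AMPA receptors, differed by 0.30 between WT and PS19 (adjusted p = 0.074, exact permutation test) and by 0.021 between CgA-KO/PS19 and PS19. None of the 4 ratios was called between CgA-KO/PS19 and WT. The smallest p these designs allow is 0.0022 before adjustment.

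Levels of different genes were compared per kilobase of exonic length, which joins all annotated exons of a gene. That length was 15548 bases for Gria2 and 6043 for Gria1, so the orders below depend on it. In CPM, Gria2 was above Gria1 in each genotype (880 and 640 on average in WT). Grin2a was likewise above Grin1 in CPM (367 and 304 on average in WT). Gria1 was the highest AMPA gene in each genotype, with a WT mean of 106 ± 17.3 CPM per kb (SD), a PS19 mean of 71.7 ± 5.39 and a CgA-KO/PS19 mean of 70.5 ± 10.2. Gria2, Gria3 and Gria4 followed in that order in all 3 genotypes. Gria1 held 48.6% ± 3.98 of the class in WT, while its share was 40.3% ± 1.13 for PS19 and 41.8% ± 3.61 for CgA-KO/PS19. Grin2b led the NMDA class, followed by Grin1 and Grin2a. In PS19 the latter pair stood at 26.5 ± 4.17 and 26.1 ± 2.26 CPM per kb, within their spread. Grin2b held 36.6% to 39.3% of the class on average.

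Among metabotropic genes the order per kilobase changed between genotypes, while in CPM Grm5 was above Grm3 in each. Grm5 led in WT (35.2 ± 6.07 CPM per kb, against 22.2 ± 3.31 for Grm3), while Grm3 led in PS19 (28.8 ± 1.35 against 22.1 ± 1.64 for Grm5) and in CgA-KO/PS19 (30.4 ± 4.76 against 23.9 ± 4.13). Per kilobase, Gabra3 was the highest GABA-A gene in each genotype, while in CPM Gabrb1 was above it in each. Gabra2 held 10.2% ± 2.52 of the GABA-A class in WT, against 6.61% ± 1.22 for PS19 and 14.2% ± 3.14 for CgA-KO/PS19. By mean level it was the fifth of the 10 genes in WT, the seventh in PS19 and the third in CgA-KO/PS19. Glrb made up 85.1% to 93.7% of the glycine receptor RNA on average, and Glra2 9.82% ± 2.39 in WT, against 3.27% ± 0.996 for PS19 and 7.38% ± 2.21 for CgA-KO/PS19. Shares cover only the listed genes of each class.

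**Figure D5:**
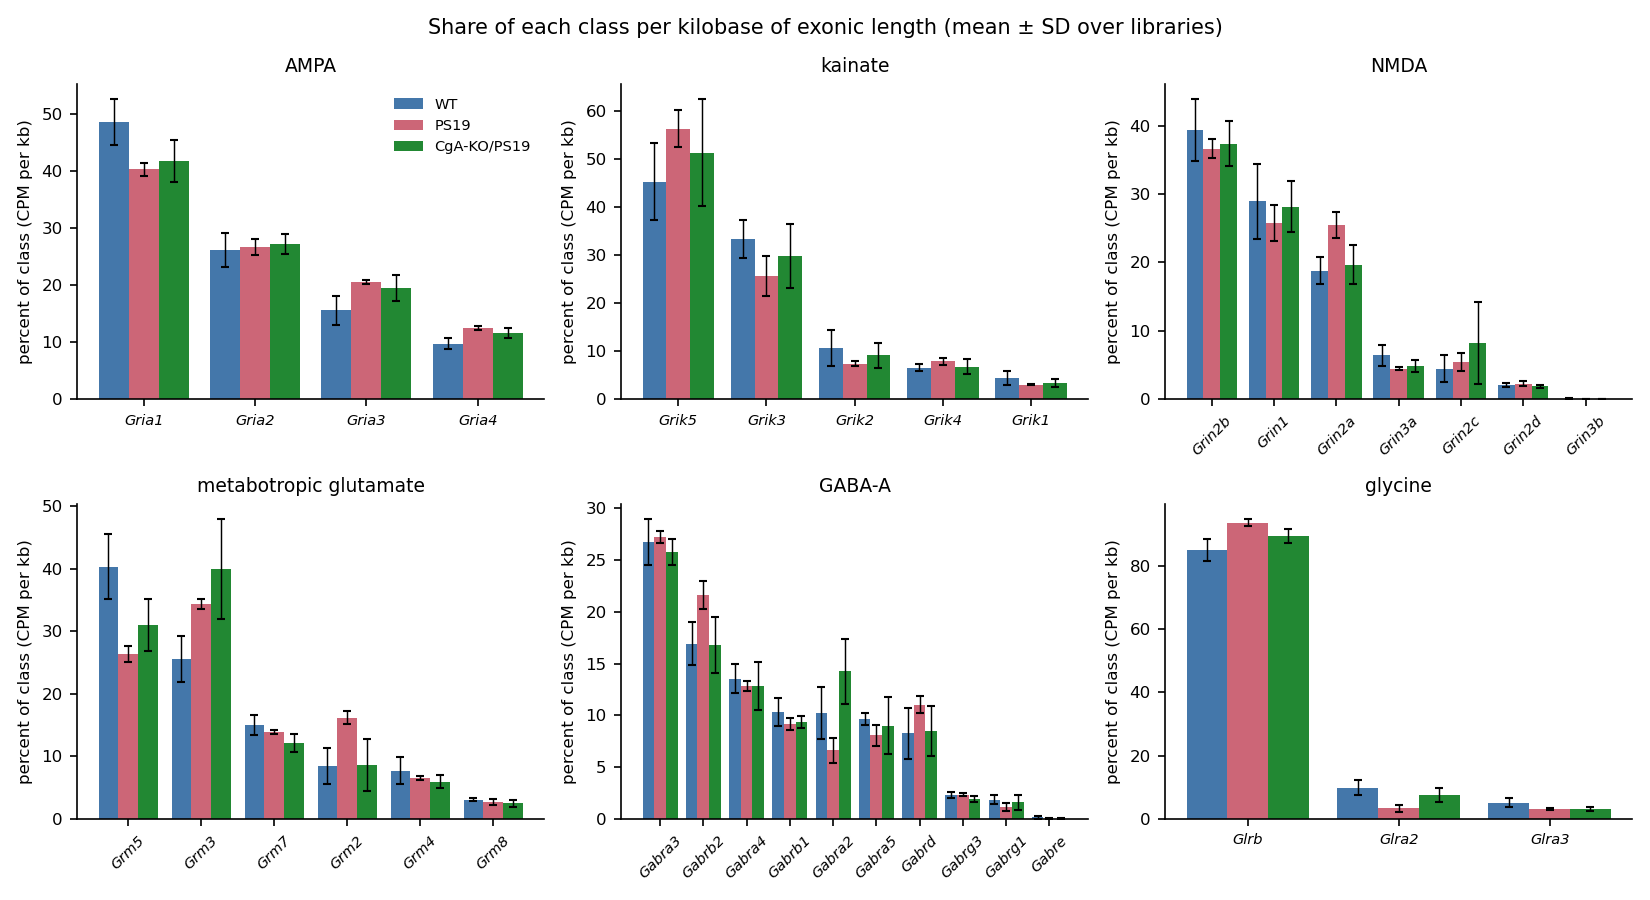
Share of each of 6 receptor classes held by each gene, per kilobase of exonic length, as mean ± SD over the libraries of each genotype. Gria1 held the largest AMPA share, and the Gabra2 share went from 6.61% in PS19 to 14.2% in CgA-KO/PS19.

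Genes that work beside the receptors were counted from 4 lists, to be read against the shares of all genes called: 3.95% higher and 1.95% lower for WT against PS19, 5.5% and 4.22% for CgA-KO/PS19 against PS19, and 3.56% and 2.89% for CgA-KO/PS19 against WT. Nothing particular to a list is read from single genes. Of 14 auxiliary subunits of AMPA and kainate receptors, which set gating and trafficking, 7 were higher in WT than in PS19. Shisa6 read 28.5 to 77.9 CPM in WT and 16.7 to 19.8 in PS19 (1.44 ± 0.18, adjusted p = 0.00025), and Cacng5 read 8.55 to 32.3 and 4.96 to 6.05 (1.71 ± 0.29, adjusted p = 0.0019). Shisa7, which is also listed with the inhibitory genes because it binds GABA-A receptors, was at 0.64 ± 0.12 and Shisa9 at 0.71 ± 0.14. Between CgA-KO/PS19 and PS19, edgeR called none of the 14, with 3 higher and 1 lower at an unadjusted p under 0.05, and DESeq2 called 1 higher. In CgA-KO/PS19 4 were lower than in WT, among them Shisa6 (-1.06 ± 0.18).

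Of 16 genes of the excitatory postsynaptic scaffold, 1 was higher in WT than in PS19 and 1 lower. Grip1, which anchors AMPA receptors, was at 0.51 ± 0.098 (adjusted p = 0.0044) and Shank1 at -0.60 ± 0.17 (adjusted p = 0.043). Homer2 was the single gene called in CgA-KO/PS19 against PS19 (0.53 ± 0.15, adjusted p = 0.035). Against WT, Homer2 (0.75 ± 0.16) and Shank1 (0.73 ± 0.17) were higher in CgA-KO/PS19 and Grip1 was lower (-0.77 ± 0.098). Of 8 genes of inhibitory scaffold and GABA-B auxiliary subunits, Lhfpl4 (-0.51 ± 0.11) and Nlgn2 (-0.52 ± 0.14) were lower in CgA-KO/PS19 than in PS19, and both organise inhibitory synapses. Shisa7 alone was called in WT against PS19, and it was higher in WT. Lhfpl4, Shisa7 and Gphn, which encodes gephyrin, were lower in CgA-KO/PS19 than in WT (-0.61 ± 0.12, -0.53 ± 0.12 and -0.37 ± 0.11).

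Of 15 genes of transmitter synthesis and transport, 14 were tested. Gad2, a GABA-synthesising enzyme (0.62 ± 0.15), and Slc17a8, a vesicular glutamate transporter (0.67 ± 0.18), were higher in WT than in PS19. Compared with PS19, CgA-KO/PS19 was lower in Gad1 (-0.78 ± 0.16, adjusted p = 0.0076), Slc17a8 (-0.75 ± 0.17) and Slc32a1, the vesicular transporter of GABA and glycine (-0.62 ± 0.18). The same genotype was higher in Slc1a3, the astrocyte glutamate transporter (0.51 ± 0.15, adjusted p = 0.046). Against WT, Slc17a8, Gad2, Gad1 and Slc32a1 were lower in CgA-KO/PS19 and Glul, the glutamine synthetase of astrocytes, was higher (1.07 ± 0.27). Slc17a8 read 2.67 to 4.85 CPM in CgA-KO/PS19, 5.70 to 8.26 in PS19 and 7.44 to 13.9 in WT, and no CgA-KO/PS19 library overlapped the others. Gad1, Gad2 and Slc32a1 are also interneuron markers, and Slc1a3 an astrocyte marker.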

How the data were processed

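Polyadenylated RNA of the prefrontal cortex was sequenced in 17 libraries. Per the submitters' processing notes, the authors used FastQC, Trimmomatic 0.39, STAR 2.7.10b, StringTie 1.3.6 and DESeq2 1.42.0 with build mm10. The authors deposited 1 table of counts per gene, not normalized. Low counts of 3 are common there, as in counts made from coverage, so counts divided by 3 were tried. Whether counting used the strand is not given in the sources used here. The members and lists were chosen with earlier results of these data known. Groups came from the sample labels.

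Genes passing filterByExpr by genotype (23062 of 56953) were scaled by TMM and fitted over all 17 libraries with 1 mean per genotype, using edgeR 4.0.16 (quasi-likelihood test, R 4.3.3). P-values were adjusted by Benjamini-Hochberg over all tested genes, and a gene was called at an adjusted p under 0.05. CPM used TMM library sizes. Values by library are given for members called in at least 1 comparison, and up to 4 genes of smallest p are named per pathway list. Other members named singly were chosen after their values were seen. Subunit ratios were tested by two-sided exact permutation over libraries. Alternatives were DESeq2 1.42.0, its size factors, other filters, only the 2 genotypes compared, the study's cluster cutoffs (p under 0.01 and log2 fold change beyond 0.5) on edgeR p-values, a replicate block, covariates (Ddx3y, marker lists), averaged near-identical libraries and leaving out each library. The fits of CgA-KO/PS19 replicates 4 to 6, without WT replicates 4 and 5, and with choroid plexus and astrocyte covariates were chosen after seeing the data. Scripts were tested on simulated counts. Positions and exonic lengths are from GENCODE (GRCm38), promoters from RefSeq (GRCm38.p6, 28 of 38 genes matched). Total counts ranged from 8838334 to 227651681, so genes with few counts, Gabre and Grin3b, are imprecise.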

Additional observations from a re-analysis of the deposited data

Results flagged for a closer look

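In 7 of the 114 sets of libraries formed by a receptor gene and a genotype, 1 library lay far from the others of its genotype by Dixon's criterion, which chance meets in about 1 of 20 such sets. WT replicate 4, the shallowest library, was the low one for Gria3 (253 CPM, others 330 to 358), Grik4 (14.9, others 25.5 to 28.0) and Grik5 (72.9, others 160 to 187). PS19 replicate 3 was the high one for Gria1 (497 CPM, others 405 to 432) and Grin3a (63.4, others 53.0 to 55.3). PS19 replicate 2 was high for Gabra4 (167 CPM, others 146 to 153), and CgA-KO/PS19 replicate 6 was high for Glra3 (31.1 CPM, others 16.1 to 21.6).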

How the results depend on the processing

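None of the 22 calls changed direction under any alternative. The directions of genes that were not called are not covered by that count. DESeq2, its size factors and counts divided by 3 kept all 9 calls of WT against PS19, 3 of CgA-KO/PS19 against PS19 and 10 of CgA-KO/PS19 against WT. Where a count of called receptor genes moved by over 1.5 times, it was as follows, and the cause was not tested. Lower in WT than in PS19 were 2 genes by DESeq2, 3 with only the 2 genotypes compared, 1 by the study's cutoffs, 1 with the Ddx3y covariate, 3 with the striatum covariate and 4 with the astrocyte covariate, against 0. Higher in WT were 20 with the striatum covariate, 2 with near-identical libraries averaged, 1 without WT replicates 4 and 5 and 1 with the choroid plexus covariate, against 9. Lower in CgA-KO/PS19 than in PS19 were 4 by DESeq2, 2 with only the 2 genotypes, 3 with Ddx3y, 4 without WT replicates 4 and 5, 4 with astrocytes, and 0 with averaged libraries, with CgA-KO/PS19 replicates 4 to 6 alone or with choroid plexus, against 1. Higher there was 1 with averaged libraries and 1 with replicates 4 to 6 alone, against 2. Higher in CgA-KO/PS19 than in WT were 2 with striatum, and 0 with no filter, only the 2 genotypes, the study's cutoffs, averaged libraries, replicates 4 to 6 alone, without WT replicates 4 and 5, choroid plexus or astrocytes, against 1. Lower than WT were 1 with only the 2 genotypes, 23 with striatum, 2 with averaged libraries, 1 with replicates 4 to 6 alone, 3 without WT replicates 4 and 5, 0 with choroid plexus and 3 with astrocytes, against 9.

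Leaving out each library gave 6 to 10 higher and 0 to 1 lower genes for WT against PS19, 2 to 2 higher and 0 to 4 lower for CgA-KO/PS19 against PS19, and 0 to 1 higher and 2 to 10 lower for CgA-KO/PS19 against WT, where 2 was without WT replicate 5.

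Whether replicate numbers pair the libraries is not given in the labels. Same-numbered deviations correlated between -0.232 and 0.437, which cannot settle it. With the replicate block, 0 genes were lower in CgA-KO/PS19 than in PS19 and 5 lower than in WT. Paired by number with exact sign flips, the log2 ratio differences against PS19 were -0.54 (WT) and -0.41 (CgA-KO/PS19) for Grin2a to Grin2b, -0.56 and -1.24 for Grm2 to Grm3, and -0.98 for Gabra5 to Gabra2 in CgA-KO/PS19 (adjusted p = 0.125 each, exact sign-flip permutation test). The smallest p that 5 or 6 pairs allow is 0.0625 or 0.03125, which these reached, so the adjusted values could not pass and say nothing of stability. With averaged libraries they were -0.52 and -0.36, -0.54 and -0.99, and -1.25 (adjusted p 0.063 to 0.11, exact permutation test). Fewer libraries raise the smallest possible p there too. With CgA-KO/PS19 replicates 4 to 6 alone, Gabra5 to Gabra2 differed from WT by -1.20 (adjusted p = 0.036, exact permutation test). Leaving out each library, the differences against PS19 spanned -0.62 to -0.46 and -0.45 to -0.37 for Grin2a to Grin2b, 0.23 to 0.38 for Gria1 to Gria2 in WT, -0.67 to -0.43 and -1.47 to -1.02 for Grm2 to Grm3, and -1.16 to -0.85 for Gabra5 to Gabra2 in CgA-KO/PS19.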
